A study of Mus musculus with 29 samples.

Results

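Gad1 and Gad2 encode the 2 forms of glutamate decarboxylase, the enzyme that makes the inhibitory transmitter GABA from glutamate. They were followed in RNA sequencing of adult cortical cultures after a conditioning lesion, over 5 days in culture. Both were chosen from the authors' deposited table, whose genes each passed an adjusted p of 0.1 at some day, and they are 2 of its 5826 genes. The values that chose them are therefore the same adjusted p-values described here, and no test is added to them. The smallest adjusted p over the days was 0.000132 for Gad1 and 0.00037 for Gad2 in the authors' deposited table, both far inside the threshold.

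The libraries came from primary cortical neurons of adult wild-type C57/BL6 mice. Animals of the lesion groups were injured in vivo (a conditioning lesion) a day before their cells were plated, and animals of the naive groups had no treatment. Cultures were sampled at days 1, 2, 3, 5 and 7, with 3 lesion libraries at each day, and 3 naive libraries at each day except day 7, which had 2. Of the 29 libraries 15 were from lesion and 14 from naive cultures. Whether the libraries within a group are separate cultures or separate animals is not labelled, so the p-values measure the spread between these libraries, which may be technical. Neither the kind of lesion nor any pooling of animals is stated in the labels. Each value is a log2 fold change, lesion over naive at the same day, that the authors computed with voom and limma, and no value per library was used. "Rose" and "fell" are used only for an adjusted p under 0.1 in the authors' deposited table. Each standard error (SE) was worked back from a fold change and the p-value given with it.

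GABA is made in the cytosol of inhibitory neurons and loaded into synaptic vesicles by a transporter shared with glycine. The Gad1 protein is found throughout the cell and supplies most of the basal GABA. The Gad2 protein is enriched at nerve terminals and is activated on demand by binding its cofactor, pyridoxal phosphate. In the cortex the pair marks inhibitory interneurons, while the glutamatergic projection neurons carry little of either.

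Both genes lie on the plus strand of mouse chromosome 2 (GRCm38, the assembly also called mm10). GENCODE places Gad1 (ENSMUSG00000070880.10) at chr2:70553072-70602014 and Gad2 (ENSMUSG00000026787.3) at chr2:22622205-22693874, both protein coding. An antisense gene, Gad1os, spans the start of Gad1 but shares 0 exonic positions with it, and is not in the authors' deposited table. A processed pseudogene of Gad1 lies on chromosome 10 and is also not in that table. Since a pair of related genes could share reads, their coding sequences were compared. The longest open reading frames were 1782 bases for Gad1 and 1758 bases for Gad2, with 67.2% identity over 1743 aligned bases. The longest run of identical bases between these reading frames was 17. The stretch that encodes the lysine binding the cofactor is shown because it is where both enzymes do the same chemistry. Capitals mark the codons of its asparagine, proline, histidine and lysine, at coding bases 1201 to 1212 of Gad1 and 1177 to 1188 of Gad2, and 47 of the 60 bases shown are identical.
Gad1 coding bases 1177 to 1236: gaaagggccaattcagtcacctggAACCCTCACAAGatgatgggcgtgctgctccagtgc
Gad2 coding bases 1153 to 1212: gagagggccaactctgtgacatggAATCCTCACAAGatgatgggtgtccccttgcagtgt

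The promoters are shown because both genes changed in the same direction at days 3 and 5. RefSeq sequence of GRCm38.p6 was taken from 250 bases before to 50 bases after 1 start per gene, at chr2:70561879-70562178 for Gad1 and chr2:22622077-22622376 for Gad2. These RefSeq starts are not the GENCODE gene starts given above. That of Gad1, at 70562129, lies 9057 bases inside the gene as GENCODE places it, and 87 bases after the start of its longest coding transcript. That of Gad2, at 22622327, lies 122 bases after the GENCODE start. Other annotated starts were not searched. Capitals mark the E-box, CANNTG, which neuronal basic helix-loop-helix factors can bind. Each promoter held 1 E-box, and 72.3% of all 32851 promoters of the same length held at least 1.
Gad1 promoter: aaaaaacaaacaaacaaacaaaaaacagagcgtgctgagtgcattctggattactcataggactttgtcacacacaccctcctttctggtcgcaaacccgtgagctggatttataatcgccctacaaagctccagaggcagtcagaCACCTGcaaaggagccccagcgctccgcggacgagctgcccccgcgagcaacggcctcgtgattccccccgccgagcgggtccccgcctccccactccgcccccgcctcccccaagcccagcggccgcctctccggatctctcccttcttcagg
Gad2 promoter: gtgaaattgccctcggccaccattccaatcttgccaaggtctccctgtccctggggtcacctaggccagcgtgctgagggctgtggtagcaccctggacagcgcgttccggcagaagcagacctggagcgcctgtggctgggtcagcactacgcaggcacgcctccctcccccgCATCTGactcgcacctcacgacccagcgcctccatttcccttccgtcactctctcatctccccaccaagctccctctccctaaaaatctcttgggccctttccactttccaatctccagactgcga
On both strands, TAATTA (present in 5.29% of all promoters), the AP-1 motif TGANTCA (7.81%) and the cAMP response element TGACGTCA (1.79%) had no match in either window. TATAAA (13.6% of promoters) and the GC box GGGCGG (35.7%) each had 1 match in the Gad1 window and none in the Gad2 window. No motif searched overlapped an E-box in these windows. A match is a description of the letters, not a binding site. GC content was 60% in the Gad1 promoter and 61.3% in the Gad2 promoter, beside a median of 52.7% over all promoters.

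The GABA synthesis genes were higher in lesion cultures at day 3 and lower at days 5 and, for Gad1, 7. Gad1 rose at days 2 and 3 and fell at days 5 and 7. Its log2 fold change in the authors' deposited table was 0.73 at day 1 (implied SE 0.38), 1.06 at day 2 (SE 0.27), 1.21 at day 3 (SE 0.29), -1.64 at day 5 (SE 0.28) and -1.01 at day 7 (SE 0.28). As ratios of lesion over naive, these are 1.66, 2.08, 2.31, 0.32 and 0.495. The adjusted p of Gad1 in the authors' deposited table was 0.497 at day 1, 0.0282 at day 2, 0.053 at day 3, 0.000132 at day 5 and 0.0524 at day 7. Gad1 thus passed the threshold at 4 of the 5 days, and missed it at day 1.

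Gad2 rose at day 3 and fell at day 5. Its log2 fold change in the authors' deposited table was 0.36 at day 1 (implied SE 0.27), 0.15 at day 2 (SE 0.27), 1.23 at day 3 (SE 0.33), -1.97 at day 5 (SE 0.36) and -0.64 at day 7 (SE 0.33). As ratios of lesion over naive, these are 1.28, 1.11, 2.34, 0.256 and 0.643. Its adjusted p in the authors' deposited table was 0.66 at day 1, 0.807 at day 2, 0.0765 at day 3, 0.00037 at day 5 and 0.353 at day 7. At day 3 Gad2 was the member nearest the threshold from inside, and Gad2 at day 7 was the nearest outside it. At an adjusted p threshold of 0.05, the rises of both genes at day 3 and the fall of Gad1 at day 7 were no longer called. In bulk cultures, fewer inhibitory neurons and less Gad RNA per neuron cannot be told apart.

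**Figure D1:**
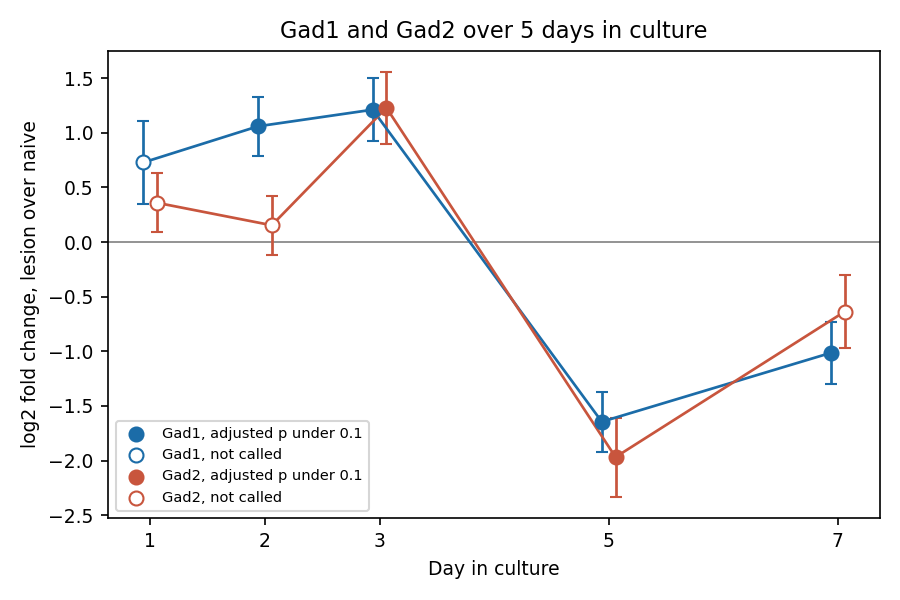
Log2 fold change of lesion over naive (vertical axis) for Gad1 and Gad2 at each day in culture (horizontal axis). Bars are the implied SE, filled points passed an adjusted p of 0.1 and open points did not. Both genes are above 0 through day 3 and below 0 at days 5 and 7, with 1.21 and 1.23 at day 3 and -1.64 and -1.97 at day 5.

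The turn from day 3 to day 5 was the largest step in either gene. The log2 fold change of Gad1 at day 5 minus that at day 3 was -2.85 (SE 0.40), and that of Gad2 was -3.20 (SE 0.49). Day 7 lay between, since day 7 minus day 5 gave 0.63 (SE 0.39) for Gad1 and 1.33 (SE 0.49) for Gad2. These errors treat the days as independent. Their libraries differ, but whether cultures of different days came from the same animals is not labelled. No per-library level of either gene was used, so a change of the lesion cultures and a change of the naive cultures between days cannot be told apart.

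Gad1 and Gad2 had nearly equal fold changes at day 3, where Gad1 minus Gad2 was -0.02 on the log2 scale (SE 0.44). The widest gap was at day 2, when Gad1 was called and Gad2 was not, with a difference of 0.91 (SE 0.38). At day 7, where again only Gad1 was called, the difference was -0.38 (SE 0.44), with 0.37 (SE 0.47) at day 1 and 0.32 (SE 0.45) at day 5. The errors take the genes as independent, although they were measured in the same libraries. The difference between the genes was not tested.

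How common such calls were depended on the day. At day 1, 0.0891% of the 19085 genes tested rose and neither member was called. At day 2, 1.89% of all genes tested rose, and 1 of the 2 members did. At day 3 the share was 0.534%, and both members rose. At day 5, 11.2% of all genes fell, as did both members, and at day 7 the share that fell was 0.985%, with 1 member among them. The file numbers genes by a rank that it does not explain, read here as mean expression with 1 the highest, because the implied errors grow with it. Gad1 had rank 244 and Gad2 rank 1457, so both belong to the most expressed 4771 genes. Among those 1.38% rose at day 3 and 25.8% fell at day 5. Of the 66 among them that rose at day 3, Gad2 was 15th and Gad1 16th by the size of the fold change. Of the 1232 among them that fell at day 5, Gad2 was 11th and Gad1 60th by size.

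The sequence of a rise at day 3 and a fall at day 5 was shared by most genes that rose at day 3. In the authors' deposited table, 75 genes did both, which is 73.5% of the 102 that rose at day 3 and 3.51% of the 2137 that fell at day 5, while 1 gene rose at both days. Gad1 was among 34 genes that also rose at day 2. It was among 3 that rose at days 2 and 3 and fell at days 5 and 7, together with Lrrc16b and Zfp804b, which are named here after their values were seen. Only 8 genes of the authors' deposited table, Gad1 among them, passed the threshold at 4 days, and 0 passed at 5.

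Of 7 genes that load GABA into vesicles, take it up or break it down, 1 rose and 1 fell at day 3, and 0 rose and 3 fell at day 5. The 3 are 42.9% of the list, beside 11.2% of all genes tested that fell at day 5. At day 3, 0.534% of all genes tested rose and 0.943% fell. Slc32a1, the vesicular GABA transporter, fell at day 5 with a log2 fold change of -1.87 in the authors' deposited table (implied SE 0.39, adjusted p = 0.00131). At day 3 Slc32a1 had 0.41 (SE 0.32) and was not called. Abat, the transaminase that breaks GABA down, fell at day 2 (-0.71, SE 0.24) and at day 5 (-0.89, SE 0.23) in the authors' deposited table. Slc6a13, a GABA carrier found mainly in meningeal and liver cells, fell at day 3 (-4.75, SE 1.33) and has a rank of 15127 in the authors' deposited table.

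Of 9 genes for the supply of substrate and cofactor, 1 fell at day 5, the glutamine carrier Slc38a1, with -0.68 (implied SE 0.22) in the authors' deposited table. At 11.1% of the list, this is close to the share of falls among all genes (11.2%), and nothing is read from the count. Pdxk, the kinase that makes pyridoxal phosphate, fell at day 2 with -0.84 (SE 0.26) in the authors' deposited table. At day 5 Pdxk had -0.27 (SE 0.24) and was not called.

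On the receiving side, 4 of 19 GABA-A receptor subunit genes fell at day 5 and 2 rose. These are 21.1% and 10.5% of the list, beside 11.2% and 12.8% of all genes tested and, for falls, 25.8% of the 4771 most expressed genes. Nothing is read from these counts, and the values of single subunits follow as a description. Among the 4 was Gabrb2, a beta subunit of synaptic receptors, with a day 5 log2 fold change of -1.97 (implied SE 0.37) in the authors' deposited table. At day 3 Gabrb2 had 0.56 (SE 0.31) in the authors' deposited table and was not called. The 2 that rose at day 5, Gabrp (3.16, SE 1.25) and Gabrr3 (3.61, SE 1.44), have ranks of 17266 and 18390 in the authors' deposited table and large errors. Gabrr2, a rho subunit with rank 13609, fell at days 2 and 3. Gabbr1, 1 of the 2 GABA-B receptor genes, fell at day 5 with -1.01 (SE 0.36) in the authors' deposited table.

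Among 9 genes of the inhibitory synapse scaffold and of chloride transport, 4 (44.4%) fell at day 5 and 0 rose. Over all genes tested 11.2% fell and 12.8% rose at that day. They included Gphn, which encodes the scaffold gephyrin, with -1.25 (implied SE 0.38) in the authors' deposited table. The chloride importer Slc12a2 fell at day 2 (-1.19, SE 0.32) and was not called at day 5 (-0.19, SE 0.38) in the authors' deposited table.

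Transcription factors of the inhibitory lineage fell at day 5 in 7 of 18 cases (38.9%) and rose in 3 (16.7%), and 0 were called at day 3. Beside these stand 11.2% fallen and 12.8% risen of all genes tested at day 5. The share that rose is near that of all genes, and nothing is read from that count. The distal-less genes, which drive the inhibitory fate and activate the GAD genes in the developing forebrain, fell at day 5 in all 4 cases. Log2 fold changes in the authors' deposited table were -1.21 for Dlx1 (implied SE 0.38), -1.73 for Dlx2 (SE 0.46), -1.99 for Dlx5 (SE 0.56) and -2.27 for Dlx6 (SE 0.62). Sp8 and Sp9, zinc finger genes of interneuron lineages, also fell at day 5, with -1.12 (SE 0.42) and -1.02 (SE 0.39) in the authors' deposited table. At day 2 the distal-less genes split, as Dlx2 fell (-1.03, SE 0.32) and Dlx6 rose (1.61, SE 0.50) in the authors' deposited table, while Gad1 rose. The 3 that rose at day 5 were Lhx6 (4.62, SE 1.53), Nkx2-1 (3.71, SE 1.37) and Nr2f2 (3.27, SE 0.63) of the authors' deposited table. Lhx6 and Nkx2-1 mark interneurons of the medial ganglionic eminence and have ranks of 12727 and 17083. Nr2f2, a nuclear receptor that vascular and mesenchymal cells also express, has rank 9926.

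Subtype markers fell at day 5 in 13 of 26 cases (50%) and rose in 2 (7.69%), while 3 rose and 0 fell at day 3. All genes tested gave 11.2% fallen and 12.8% risen at day 5, and 0.943% fallen and 0.534% risen at day 3. The neuropeptide genes Sst (-3.12, implied SE 0.72), Npy (-3.32, SE 0.72) and Cck (-1.82, SE 0.47) fell at day 5 in the authors' deposited table, as did the calcium-binding protein genes Calb1 (-2.05, SE 0.61) and Calb2 (-3.00, SE 0.86). Synpr, a synaptic vesicle protein gene of rank 434, rose at day 3 (1.34, SE 0.28) and fell at day 5 (-1.86, SE 0.29) and at day 7 (-1.11, SE 0.29) in the authors' deposited table. The growth factor gene Igf1 rose at day 2 (1.20, SE 0.22) and day 3 (0.83, SE 0.21) in the authors' deposited table. It fell at day 5 (-0.65, SE 0.24). Adarb2, a marker of interneurons from the caudal ganglionic eminence, rose at day 2 (1.43, SE 0.32) and fell at day 5 (-1.91, SE 0.46) in the authors' deposited table. Sncg and Nos1 rose at day 5, with 2.77 (SE 0.97) and 3.10 (SE 1.18) in the authors' deposited table. Their ranks are 11587 and 13935. Of the genes that fell, Npy, Calb1 and Calb2 also have low expression by rank, at 10213, 10720 and 12031.

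Apart from the GAD genes, the pathway and inhibitory lists held 89 genes, of which 47 are in the authors' deposited table. At day 5, 32 of the 89 fell and 7 rose, against 11.2% of all genes that fell and 12.8% that rose. With a rank up to 9542, 32 of the 47 are in the authors' deposited table, of which 28 fell and 0 rose at day 5. Over all genes to that rank, 20% fell and 9.92% rose at day 5. No share of the lists can be set beside these, since listed genes outside the table have no rank and a table member had to pass at some day. The 7 that rose all have a rank above 9542, as do 4 of the 32 that fell. At day 3 the same lists gave 3 risen and 2 fallen (0.534% and 0.943% of all genes), and at day 2 they gave 3 risen and 7 fallen (1.89% and 4.08%). At day 7 they gave 2 risen and 2 fallen (3.11% and 0.985%), and at day 1 they gave 0 of either (0.0891% and 0.529%). A list gene outside the table is counted as not called, and whether it was tested is unknown here. For the same reason no median over the listed members is given.

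**Figure D2:**
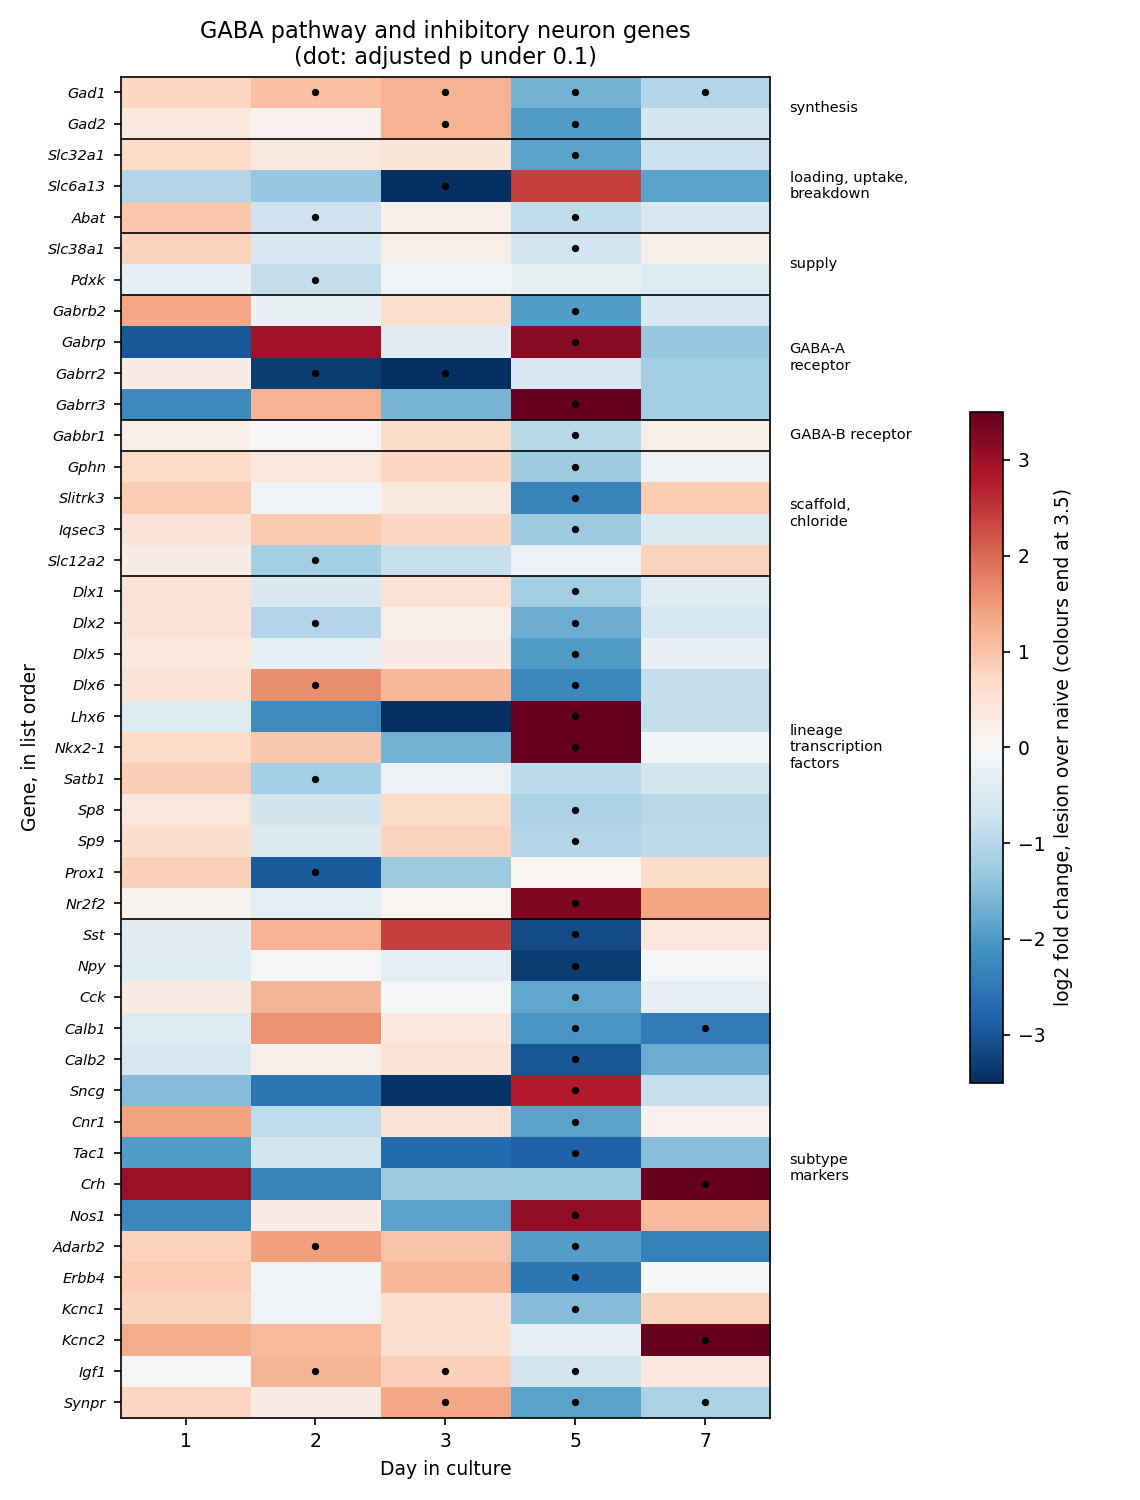
Log2 fold change of lesion over naive (colour, red above 0 and blue below) for most listed genes in the table (rows, grouped by role) at each day in culture (columns). Dots mark an adjusted p under 0.1. The day 5 column is blue for the GAD genes and most others, and over all 89 other listed genes, drawn or not, 32 fell and 7 rose.

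General neuronal markers called at days 3 and 5 had the direction of Gad1 and Gad2. Of 24 pan-neuronal markers 2 rose and 0 fell at day 3, and 0 rose and 14 (58.3%) fell at day 5. Over all genes tested 0.534% rose and 0.943% fell at day 3, and 11.2% fell at day 5. Of the 4771 most expressed genes 25.8% fell at day 5. At day 2, 2 rose and 3 fell, beside 1.89% and 4.08% of all genes tested. At day 7, 0 rose and 1 fell, beside 3.11% and 0.985%. Scg2, a secretory granule gene, rose at day 3 (1.32, implied SE 0.25) and fell at day 5 (-1.02, SE 0.21) in the authors' deposited table. Snap25, of the synaptic vesicle fusion machinery, rose at day 3 (0.96, SE 0.26) and had -0.88 at day 5, where it was also called in the authors' deposited table. Map2, a dendritic microtubule gene, had 0.89 at day 3 and was not called, and fell at day 5 (-1.70, SE 0.36) in the authors' deposited table. Called or not, 16 of the 17 pan-neuronal markers in that table were above 0 at day 3 and 1 was below. Syt1, the calcium sensor of vesicle release, and Gap43, a growth cone gene, fell at day 5 in the authors' deposited table with -1.49 (SE 0.32) and -1.29 (SE 0.31). Of 24 glutamatergic markers 1 rose and 1 fell at day 3, and 2 rose and 2 fell at day 5. The day 5 counts are 8.33% of the list each way, near the 12.8% risen and 11.2% fallen of all genes tested. Nothing is read from these counts. Slc17a6, a vesicular glutamate transporter of rank 13018, fell at day 3 (-5.76, SE 1.33) in the authors' deposited table, and Mef2c, a transcription factor that interneurons also express, rose at day 3 (0.81, SE 0.22) and fell at day 5 (-1.85, SE 0.31). Foxp1 (1.72, SE 0.48) and Lmo4 (1.24, SE 0.32) rose at day 5 and Grin2b fell (-2.00, SE 0.60) in the authors' deposited table. Called or not, 3 of the 8 glutamatergic markers in that table were above 0 at day 3 and 5 were below. Whether inhibitory markers differed from pan-neuronal ones was not tested.

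Markers of other cells moved at the same days. At day 5, 14 of 15 proliferation markers, 12 of 15 mural, fibroblast and meningeal markers and 7 of 15 astrocyte markers rose, with 0, 0 and 1 fallen. Over all genes tested 12.8% rose at that day. Endothelial markers gave 3 risen of 15 (20%), oligodendrocyte lineage markers 2 (13.3%) and microglia and macrophage markers 1 (6.67%), shares near the background, with 0 fallen in each. The 2 of the oligodendrocyte lineage list were Pdgfra and Cspg4, which the mural list also holds and counts. At day 3, when the GAD genes rose, 4 of 15 endothelial and 2 of 15 oligodendrocyte lineage markers fell. Of all genes tested 0.943% fell at that day, and 0 markers of the other lists named in this paragraph were called. At day 2, when Gad1 rose, 8 of 15 endothelial, 5 of 15 oligodendrocyte lineage and 3 of 15 proliferation markers fell, beside 4.08% of all genes tested. At day 7, when Gad1 fell, 6 of 15 mural, fibroblast and meningeal markers and 3 of 15 proliferation markers rose, as did 1 of 15 of the oligodendrocyte lineage and 1 of 15 of microglia and macrophages, beside 3.11% of all genes tested. At day 5 the fibrillar collagen gene Col3a1 reached a log2 fold change of 11.14 in the authors' deposited table, with a large implied SE of 2.34. The astrocyte gap junction gene Gja1 had 5.59 (SE 0.98) there. The part of these cells in the GAD values was not tested, and the range of marker levels per group could not be computed without values per library. The labelled cell type, adult neuron, had markers among the most expressed genes of the authors' deposited table, with Stmn3 at rank 81, Nsg1 at 193, Tubb3 at 321 and Map2 at 702. Non-neuronal markers were also measured, among them Cnp at rank 856, Csf1r at 2651 and Col1a1 at 4434 in the authors' deposited table.

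**Figure D3:**
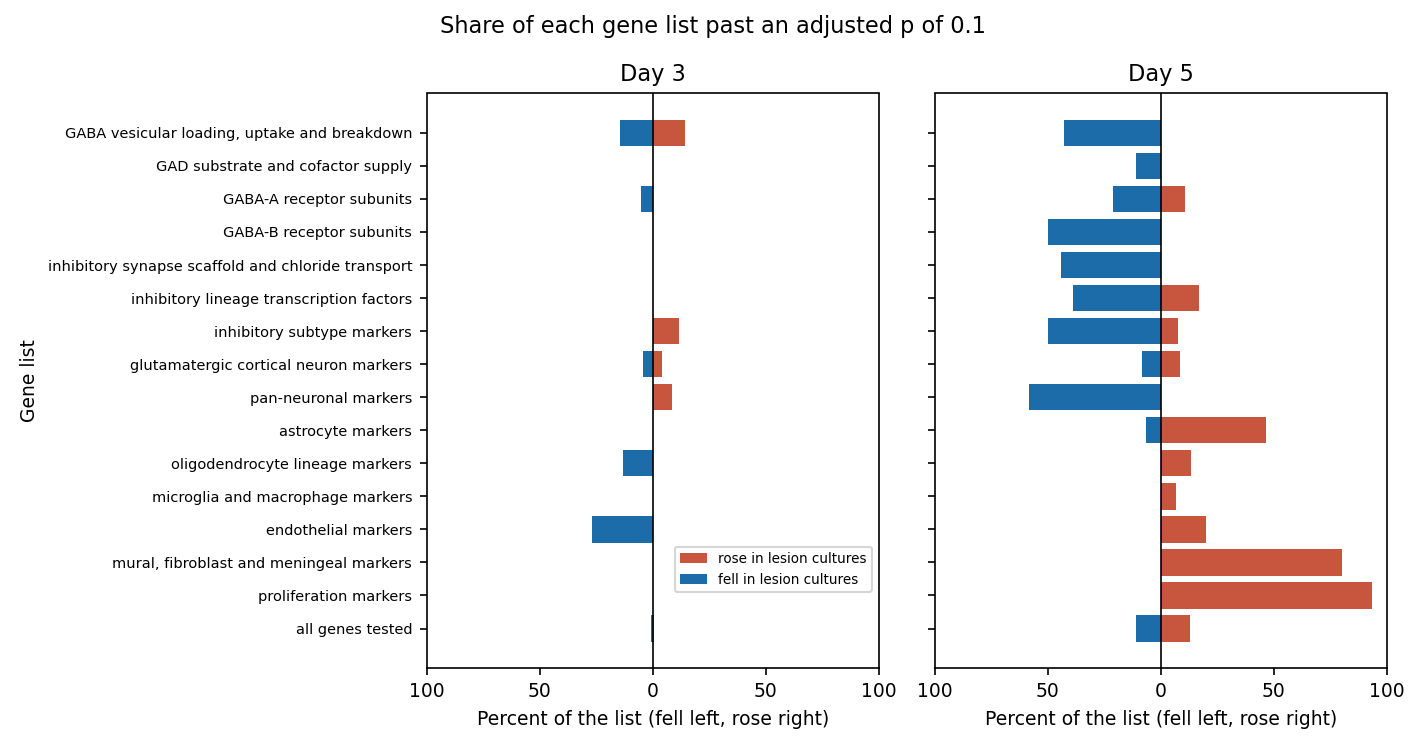
Percent of each gene list (rows) past an adjusted p of 0.1 at day 3 (left panel) and day 5 (right panel), with genes lower in lesion cultures to the left of 0 and genes higher to the right. At day 5 the inhibitory and pan-neuronal lists extend mostly to the left, and the mural and proliferation lists only to the right. The last row gives all genes tested, with 11.2% fallen and 12.8% risen at day 5.

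Genes with the most similar values were looked for among 3529 other genes of the authors' deposited table, with predicted genes and ranks above 9542 left out. Likeness was the Euclidean distance between the 5 daily log2 fold changes of a gene and the mean of Gad1 and Gad2, in log2 units. The nearest 10 included Ppp1r9a (distance 0.293), Trim9 (0.413), Map3k1 (0.443), Kdm4c (0.456), Gria4 (0.479), Nek1 (0.481), Synpr (0.505), Gria1 (0.507) and Unc79 (0.511). Ppp1r9a encodes an actin-binding protein of dendritic spines. It had 1.05 at day 3 (SE 0.46), not called, and fell at day 5 (-1.75, SE 0.61) in the authors' deposited table. Gria1 and Gria4 encode AMPA-type glutamate receptor subunits. They fell at day 5 with -1.75 (SE 0.42) and -1.48 (SE 0.29) in the authors' deposited table, and neither was called at day 3. Only Synpr of the 10 was on an inhibitory list. Gad1 and Gad2 were 1.10 apart, and 111 of the 3529 genes were closer to Gad1 and 205 closer to Gad2 than the pair were to each other. The 5 days share no libraries, and the selection of the table for changed genes is common to all of them.

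**Figure D4:**
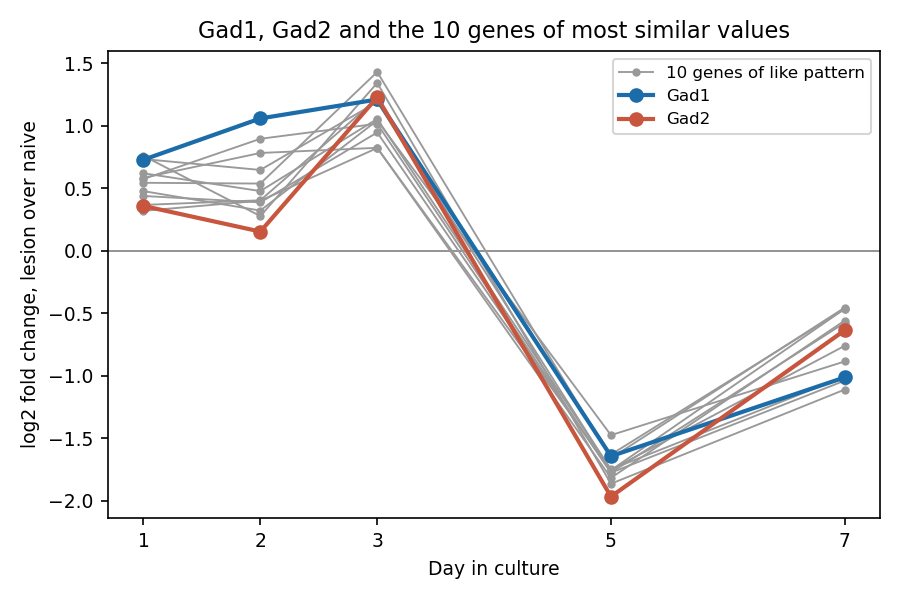
Log2 fold change of lesion over naive (vertical axis) at each day in culture (horizontal axis) for Gad1, Gad2 and the 10 genes of most similar values, drawn in grey. All lines are above 0 at day 3 and below 0 at day 5, where the 10 lie between -1.86 and -1.48.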

How the data were processed

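RNA was sequenced in 29 libraries of adult mouse cortical cultures, grouped by treatment and day from their titles. Per the submitters' processing notes, alignment used STAR and the mm10 build. The counting tool, strand use, low-count filter and scaling are not given in the sources that were used. The deposited file is the authors' list of genes at a false discovery rate under 0.1 from voom and limma, per the file name. Its columns, per the file headers, are the authors' log2 fold change, p-value and adjusted p-value of each day. A rank, deposited with no unit, is used as a score: the median implied error at day 5 was 0.279 for ranks up to 4771 and 1.35 for ranks above 14313. Library depth and its precision are unknown here.

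No gene was tested again. The adjusted p-values were rebuilt as Benjamini-Hochberg values over 19085 genes within each day (largest relative deviation 9.15e-13). Implied SEs are the fold change over the t quantile of its p-value with 35 degrees of freedom, the whole number from 5 to 100 at which the errors of genes with a rank up to 4771 depended least on p. This step was also run on simulated data in which the error of a gene varied little between days. In these data it varied more for some genes, so the simulation does not settle how accurate the implied SEs are. Tools were Python 3.11.15, scipy 1.17.1, pandas 2.3.3 and Biopython 1.88. Gene positions came from GENCODE vM21 and promoters from RefSeq.

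The members, the 16 gene lists and the alternatives were chosen with earlier results of these data known. Named genes are Gad1 and Gad2, members of the pathway and inhibitory lists, members of the glutamatergic and pan-neuronal lists among the 4 with the smallest adjusted p at day 3 or the 4 with the smallest at day 5, and the 10 genes of nearest values. Col3a1, Gja1, Pdgfra, Cspg4, Cnp, Csf1r, Col1a1 and the neuronal markers given by rank were named after their values were seen. A few listed or nearest genes enter the counts but are not reported here. Alternatives were other thresholds, other degrees of freedom, a limit on rank and other measures of likeness.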

Additional observations from a re-analysis of the deposited data

How the results depend on the processing

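The fold changes are the authors' and do not depend on the settings, so the alternatives bear on calls and errors. At an adjusted p under 0.05, Gad1 at day 3 (1.21) and day 7 (-1.01) and Gad2 at day 3 (1.23) were no longer called, while Gad1 at day 2 (1.06) and both genes at day 5 were. At 0.01, and by Bonferroni over the 19085 genes at 0.1, the values called were those of day 5 alone, -1.64 for Gad1 and -1.97 for Gad2. With 19 degrees of freedom or a normal distribution, all 20 implied errors of the members stayed within 1.5 times the reported ones.

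Of the 89 other pathway and inhibitory genes, 2 rose and 1 fell at day 2 at an adjusted p under 0.05. At that threshold 1 rose and 1 fell at day 3, 3 rose and 25 fell at day 5, and 2 rose and 1 fell at day 7. With a rank up to 9542, 3 rose and 6 fell at day 2, and 3 rose and 0 fell at day 3. With that limit 0 rose and 28 fell at day 5, and 0 rose and 1 fell at day 7. Of the 10 genes of like pattern, 2 were also among the 10 nearest by Pearson correlation, 2 by distance to Gad1 alone and 6 by distance to Gad2 alone. No paired analysis was possible because the file holds no values per library. Leaving out single libraries was not run for the same reason, so the weight of any 1 library, such as the 2 naive ones of day 7, is unknown here.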
